A study of Rattus norvegicus with 10 samples.

Results

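The renin-angiotensin system was followed in rat liver through 7 genes: Agt, Agtr1a, Agtr1b, Ace, Enpep, Mme and Lnpep. Members were taken by symbol, and every probe set whose platform annotation names 1 of these genes alone was kept. All 7 were measured, by 11 probe sets, among 14217 named genes and 31042 probe sets tested. The livers belonged to 10 rats, all male and of the outbred Sprague-Dawley strain. The exposed group held 5 animals exposed, in a short-term study, to effluent of bulk drug industries, and the control group held 5 animals without it. The labels give neither age, dose, length of exposure, the compounds in the effluent nor what the controls received. Each array held RNA of 1 animal on Affymetrix 3' expression arrays, and each value is an expression level on the log2 scale, on which 1 unit is a 2-fold change.

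Angiotensinogen, the product of Agt, is secreted by hepatocytes into the blood. Renin from the kidney cuts it to angiotensin I, which angiotensin-converting enzyme turns into angiotensin II. This peptide acts on AT1 receptors to narrow vessels and to raise aldosterone. ACE inhibitors block the converting enzyme and AT1 blockers the receptor, and both are drugs made in bulk by the pharmaceutical industry. Enpep, Mme and Lnpep are membrane peptidases that shorten or degrade the peptides. Rats carry a pair of AT1 receptor genes, Agtr1a and Agtr1b.

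The arrays resembled one another, with correlations between 0.991 and 0.996 for any pair. Hepatocyte markers, with 9 of 10 listed genes measured, averaged 12.31 to 12.37 in exposed livers and 12.31 to 12.38 in control livers. RMA gives no call of presence. As a gauge, 22 probe sets of 20 genes that liver should lack, such as Ins1, Prm1 and Umod, read between 2.41 and 7.30, with a median of 4.07. Of these 22, 5 averaged above 5.47, the median over all probe sets, so the upper part of the span rests on few of them. A reading in that span does not tell expression from background. The 4 brightest member probe sets lay above it: Agt, both of Agtr1a and 1 of 2 for Enpep. The other 7 lay within it, and 6 of these also missed a filter at the median probe set of 5.47, which 5 member probe sets passed.

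No member passed the test. Limma called 0 of 11 member probe sets at an adjusted p of 0.05, against 0% of all probe sets, and 0 at an unadjusted p under 0.05, against 5.46% of all. Adjusted p values of the members lay between 0.880 and 0.997. Exposed means were higher for 7 probe sets and lower for 4, where 52% of all probe sets were higher and 48% lower. The median member difference was 0.05, against 0.0044 over all probe sets. For 10 of the 11, the 95% interval held no 1.3-fold difference in either direction, as was so for 88% of all probe sets, and a limit of 1.5-fold gave the same 10 against 97.3% of all. The exception was Mme.

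**Figure D1:**
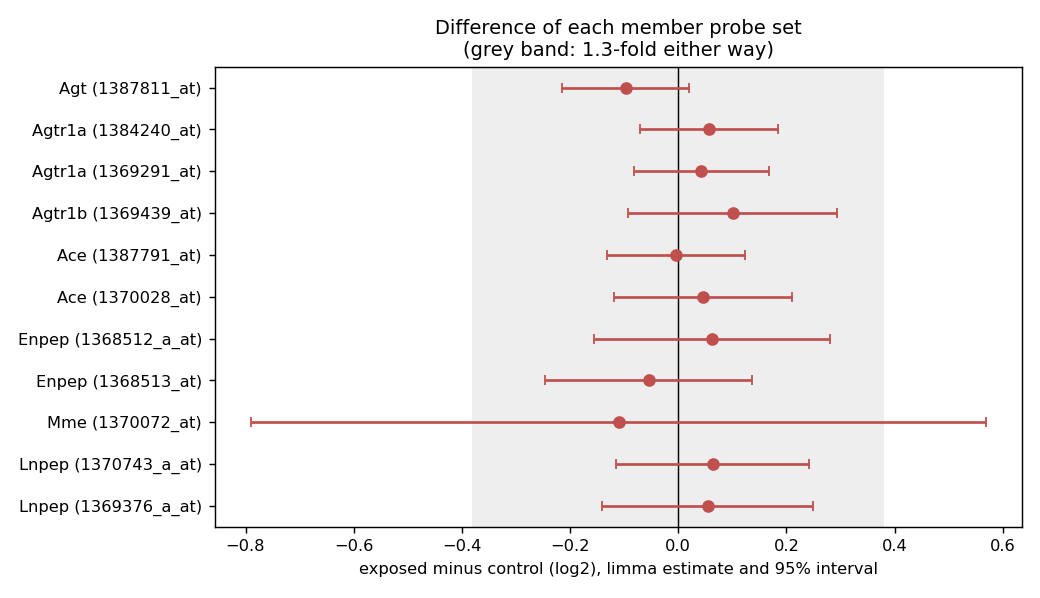
Exposed minus control on the log2 scale for each member probe set, with the limma estimate as a point and its 95% interval as a bar. All 11 intervals cross 0, and only that of Mme leaves the grey band of 1.3-fold in either direction.

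Agt, the source of every angiotensin peptide, was bright and even. It read 12.30, 12.34, 12.39, 12.39 and 12.33 in exposed animals 1 to 5, against 12.39, 12.50, 12.52, 12.42 and 12.39 in control animals 1 to 5. Every exposed animal lay below every control animal, but by a sliver: the highest exposed value was 12.388 and the lowest control value 12.389. Agt averaged 12.35 ± 0.04 in exposed livers and 12.45 ± 0.06 in control livers (SD, n = 5 each). The difference was -0.10 ± 0.05 (SE), or 0.935-fold with a 95% interval of 0.862 to 1.01, at a limma adjusted p of 0.880. It was the 1 of 11 member probe sets whose groups did not overlap, as was the case for 0.892% of all probe sets. Its two-sided exact permutation p was 0.00794, unadjusted, which is the smallest that 5 against 5 animals can give and which follows from the lack of overlap. Only 1.78% of probe sets had a smaller SD within groups than the 0.0522 of Agt, and the standard error of 0.05 that limma gives by sharing variances compares with 0.033 from its own SD. In bulk liver, fewer hepatocytes and less Agt RNA per hepatocyte cannot be told apart.

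**Figure D2:**
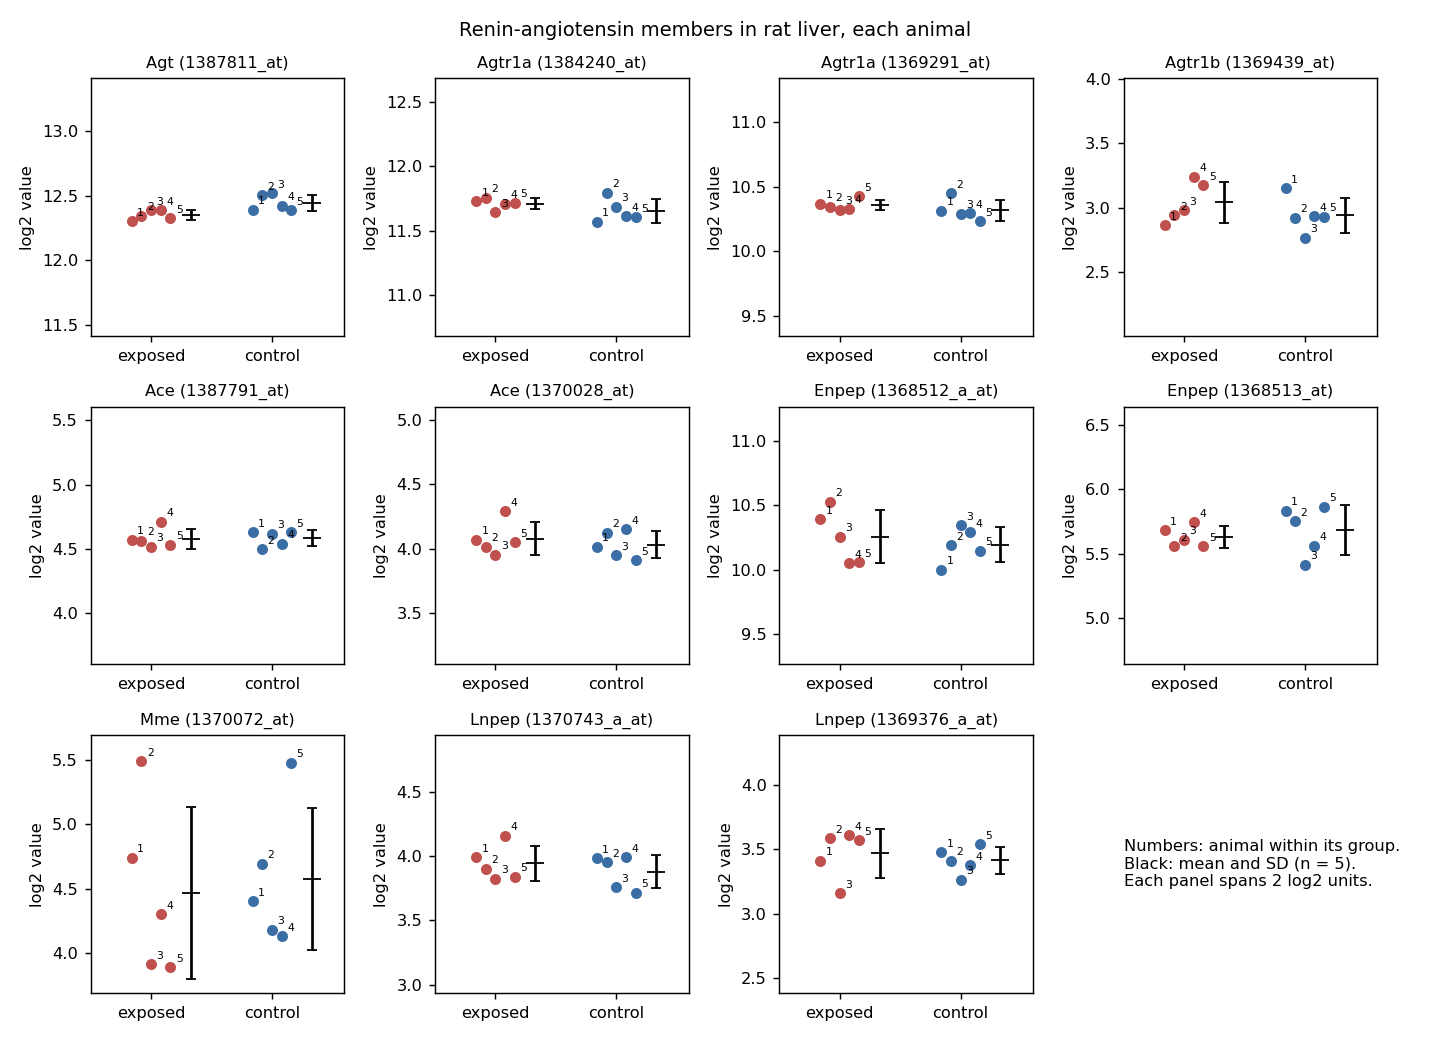
Log2 value of each member probe set in each animal, exposed left and control right, with the mean and SD (n = 5) in black and each panel spanning 2 log2 units. Agt, both Agtr1a probe sets and the brighter Ace probe set are tight, while Mme runs from 3.89 to 5.49.

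Agtr1a, the first of the receptor genes, read well above the span of genes that liver should lack. The brighter Agtr1a probe set (1384240_at) read 11.73, 11.75, 11.64, 11.71 and 11.72 in exposed animals, against 11.57, 11.79, 11.69, 11.61 and 11.60 in control animals. The groups overlapped, since control animal 2 was the highest of the 10. The difference was 0.06 (95% interval -0.07 to 0.19) at a limma adjusted p of 0.928. The second Agtr1a probe set (1369291_at) averaged 10.36 ± 0.04 in exposed livers and 10.32 ± 0.08 in control livers (SD, n = 5 each), a difference of 0.04 (-0.08 to 0.17). Control animal 2 was again the highest, at 10.45.

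Agtr1b read 2.86, 2.94, 2.98, 3.24 and 3.18 in exposed animals, against 3.15, 2.92, 2.77, 2.93 and 2.93 in control animals. These readings lie near the bottom of the span of genes that liver should lack, so its difference of 0.10 (-0.09 to 0.29) compares readings that cannot be told from background. The genes code for closely related receptors, and whether a probe set of one picks up the transcript of the other was not tested.

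The start regions of this pair are printed because the genes share a receptor function, and only Agtr1a read above the span of genes that liver should lack. Sequences are from RefSeq on build GRCr8, 5′ to 3′ on the gene's own strand, from 100 bases before the annotated start to 50 bases after it. Capitals mark TATAAA, the core of a TATA box, searched on both strands. Agtr1a lies at chr17:34435383-34435532 (minus strand) and Agtr1b at chr2:104849213-104849362 (minus strand).
Agtr1a: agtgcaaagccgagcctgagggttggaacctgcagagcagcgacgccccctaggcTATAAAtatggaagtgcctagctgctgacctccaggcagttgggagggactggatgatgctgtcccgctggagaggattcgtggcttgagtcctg
Agtr1b: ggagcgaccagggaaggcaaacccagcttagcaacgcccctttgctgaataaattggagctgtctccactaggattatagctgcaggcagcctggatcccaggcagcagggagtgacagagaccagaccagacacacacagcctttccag
The Agtr1a window holds the motif and the Agtr1b window does not. Over the full windows of 250 bases before to 50 after the start, 6 of the 7 members matched the table, Agt being the other, and 2 of them, Agtr1a and Ace, hold it on either strand. Of 33469 rat promoters of that length, 14.2% hold it. A match describes these letters and nothing more.

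Ace, which forms angiotensin II mainly on vessel walls, read low on both probe sets. The brighter (1387791_at) read 4.57, 4.57, 4.52, 4.71 and 4.53 in exposed animals, against 4.63, 4.50, 4.62, 4.54 and 4.63 in control animals. Its difference was -0.0043 (95% interval -0.13 to 0.12), with a limma adjusted p of 0.997, the largest of the members. The second (1370028_at) averaged 4.08 ± 0.13 in exposed livers and 4.03 ± 0.11 in control livers (SD, n = 5 each), a difference of 0.05 (-0.12 to 0.21). Without exposed animal 4 that difference was -0.0077.

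Enpep, aminopeptidase A, which turns angiotensin II into angiotensin III, gave readings that depended on the probe set. The brighter one (1368512_a_at) read 10.39, 10.53, 10.26, 10.05 and 10.06 in exposed animals, against 10.00, 10.19, 10.35, 10.29 and 10.15 in control animals. The exposed animals held both the highest value and a low pair, and control animal 1 was the lowest of the 10. Exposed animals 1 and 2 lay above every control animal, and the others within the span of the controls. The difference was 0.06 (-0.16 to 0.28) at a limma adjusted p of 0.951, and -0.0058 without exposed animal 2. The dimmer probe set (1368513_at) read within the span of genes that liver should lack. It averaged 5.63 ± 0.08 in exposed livers and 5.69 ± 0.19 in control livers (SD, n = 5 each), a difference of the other sign, -0.05 (-0.25 to 0.14). Leaving out control animal 3 gave -0.12, and leaving out control animal 5 gave -0.0094.

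Enpep is also known as an enzyme of the kidney's brush border. The 8 listed kidney markers, all measured, read between 2.41 and 6.10, within the span of genes that liver should lack, a list that shares Umod, Slc12a1 and Aqp2 with them. Their mean per animal was 4.63 to 4.77 in exposed livers and 4.57 to 4.73 in control livers.

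Mme, neprilysin, which degrades many peptides and trims angiotensin I, was the member that varied most. It read 4.74, 5.49, 3.91, 4.30 and 3.89 in exposed animals, against 4.40, 4.69, 4.18, 4.13 and 5.48 in control animals. Exposed animal 2 and control animal 5 stood highest, and the range over the 10 animals was 3.04-fold. Its SD within groups was 0.613, and 99.5% of probe sets had a smaller one. Mme averaged 4.47 ± 0.67 in exposed livers and 4.58 ± 0.55 in control livers (SD, n = 5 each). The difference was -0.11 (-0.79 to 0.57) at a limma adjusted p of 0.974, so the interval still holds a level 1.5-fold lower in exposed livers.

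The sign for Mme hung on single animals. The difference was 0.12 without control animal 5, 0.03 without exposed animal 3 and 0.03 without exposed animal 5, against -0.37 without exposed animal 2. Control animal 5 also had the highest 3' to 5' ratio of control transcripts, a sign of RNA quality. On the log2 scale it was 0.735, with the other arrays between 0.494 and 0.626. With this ratio as a covariate the difference was 0.15. Kupffer cell and macrophage markers, with 7 of 9 genes measured, averaged 7.73 to 8.56 in exposed livers, where exposed animal 2 was highest, and 7.46 to 8.51 in control livers, where control animal 5 was lowest. The part of these in the Mme readings was not tested.

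Lnpep, the insulin-regulated aminopeptidase, binds angiotensin IV and cleaves vasopressin and oxytocin. Its probe set 1370743_a_at averaged 3.94 ± 0.14 in exposed livers and 3.88 ± 0.13 in control livers (SD, n = 5 each), a difference of 0.06 (95% interval -0.12 to 0.24). The other, 1369376_a_at, averaged 3.47 ± 0.19 in exposed livers and 3.42 ± 0.10 in control livers, a difference of 0.05 (-0.14 to 0.25). Both read within the span of genes that liver should lack, and limma adjusted p values were 0.944 and 0.956.

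The dim probe sets shared a pattern by animal. Exposed animal 4 gave the highest reading of the 10 animals on 5 of the 6 member probe sets below the filter: Agtr1b, both of Ace and both of Lnpep. The same animal was highest on 19.6% of all 15521 probe sets below the filter, and the other animals on 7.15% to 12.6%. Its mean over the genes that liver should lack was 4.65, the highest, with the others at 4.55 to 4.61. Its values also spread least over all probe sets, with an SD of 2.20 against 2.22 to 2.26. Without exposed animal 4, the differences were 0.05 for Agtr1b, -0.04 and -0.0077 for Ace, and 0.0096 and 0.02 for Lnpep. Leaving out the highest exposed reading lowers each of these by construction.

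**Figure D3:**
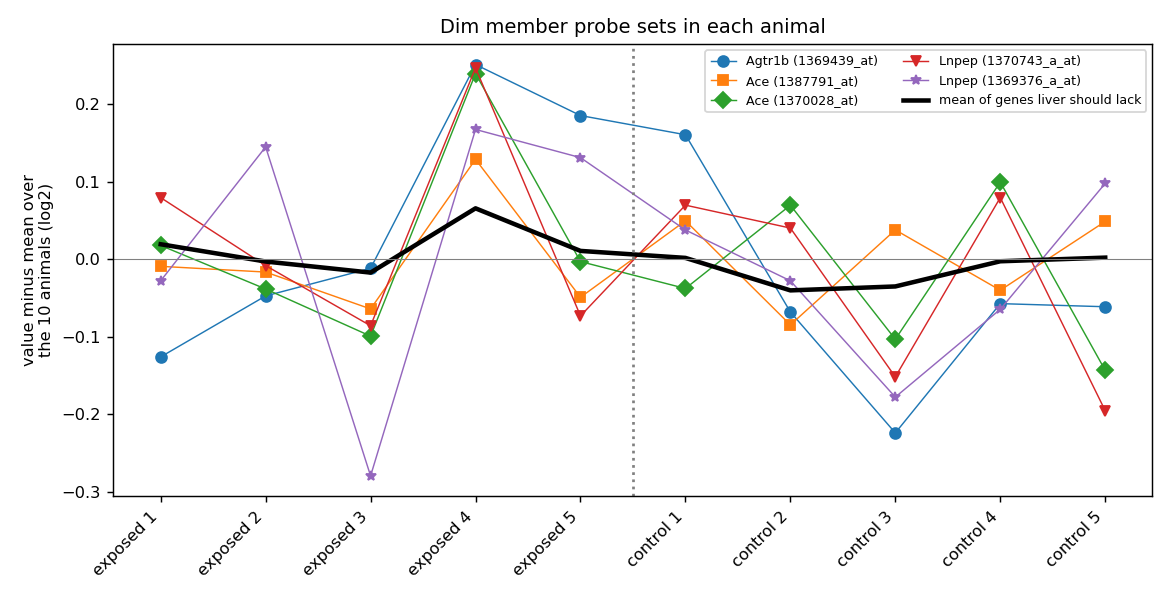
Value of each dim member probe set in each animal minus its mean over the 10 animals (log2), with the mean over the genes that liver should lack as a thick black line and Mme left out for its scale. All 5 probe sets and the black line peak in exposed animal 4.

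Probe sets of the same gene were compared across animals after group means were removed, in 4 pairs. For Agtr1a, Pearson's r was 0.72 (permutation p 0.0416, adjusted 0.166) and Spearman's rho was 0.52 (permutation p 0.132, adjusted 0.264). Without the 2 animals farthest from the median of the brighter probe set, r was 0.48. For Enpep, r was -0.54 (permutation p 0.105, adjusted 0.209) and rho was -0.55 (permutation p 0.105, adjusted 0.264), with r at -0.49 without the farthest 2. For Ace, r was 0.24 (permutation p 0.495) and rho was 0.14 (0.706), with r at -0.26 without the farthest 2. Taken by group, r for Ace was 0.97 in exposed and -0.86 in control animals (n = 5 each). Exposed animal 4 was the highest on both Ace probe sets. In the same order, r by group was 0.37 and 0.80 for Agtr1a, -0.32 and -0.88 for Enpep, and 0.47 and 5.8e-05 for Lnpep. For Lnpep, r was 0.29 (permutation p 0.416) and rho was 0.22 (0.538), with r at 0.37 without the farthest 2. Adjusted values of the Ace and Lnpep pairs were 0.495 for r and 0.706 for rho. No pair passed, so animal-to-animal differences of these members were not shown to carry over between probe sets.

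The probe sets whose pattern over the 10 animals came closest to Agt, with group means removed, named Akt2 (Pearson r 0.94), Nmur2 (0.92), Cnpy1 (0.91), Tmem170b (0.91) and Sele (0.89). All 5 missed the filter on low values. For the brighter Ace probe set they named Cdx2, Urod, Aasdhppt, Prdm2 and Apoa5, with r between 0.90 and 0.91, and 4 of these 5 passed the filter. For Mme, chosen for this after its spread was seen, they named Mid1, Creg1, Lemd3, Vamp7 and C9h2orf69, with r between 0.90 and 0.91. These are the highest values among 20826 named probe sets and carry no test.

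Other genes of the pathway showed the same lack of calls. Of 31 listed genes, 21 were measured by 28 probe sets, and limma called 0 of them. At an unadjusted p under 0.05 there was 1 lower in exposed livers, against 2.39% of all probe sets, and 0 higher, against 3.07% of all. Differences were above 0 for 15 and below 0 for 13, with a median of 0.0081. Renin was among the genes not analysed here.

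The 1 with a small p was Prep, prolyl endopeptidase, which can trim angiotensins to shorter peptides. It read 8.05, 8.07, 8.40, 8.08 and 8.21 in exposed animals, against 8.46, 8.37, 8.39, 8.44 and 8.52 in control animals. Exposed animal 3 was the one that reached the controls. The difference was -0.28 ± 0.07 (SE), with a 95% interval of -0.44 to -0.12 and a limma adjusted p of 0.879. The next smallest p values belonged to Rgs5, a brake on G protein signalling in vessel wall cells, at 0.10 (-0.04 to 0.25), and to Agtrap, which binds the AT1 receptor and draws it into the cell, at 0.11 (-0.05 to 0.27). Rgs5 read within the span of genes that liver should lack.

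Further pathway genes are given for their roles and were chosen after their values were seen. Both probe sets of Atp6ap2, the prorenin receptor, were slightly below controls, at -0.10 (-0.25 to 0.05) and -0.08 (-0.22 to 0.05). Anpep, which turns angiotensin III into angiotensin IV, differed by -0.13 (-0.40 to 0.14). The AT2 receptor gene Agtr2 differed by 0.08 and 0.01 on its probe sets and the Mas receptor gene Mas1 by 0.0031, all at readings in the span of genes that liver should lack. The mineralocorticoid receptor gene Nr3c2, which receives aldosterone, differed by 0.10 (-0.07 to 0.26), also at readings in that span.

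Factors known to act on Agt transcription in hepatocytes were read by 32 probe sets for 15 of 17 listed genes, and limma called 0. The 2 at an unadjusted p under 0.05 were both lower in exposed livers, against 2.39% of all probe sets, and both belonged to Stat3, which carries interleukin-6 signals to acute phase genes. Stat3 read 8.05, 8.20, 8.17, 7.87 and 7.91 in exposed animals on 1371781_at, against 8.51, 8.43, 8.65, 8.22 and 8.16 in control animals. Exposed animals 2 and 3 overlapped with control animal 5. The difference was -0.35 ± 0.10 (SE) at a limma adjusted p of 0.879. On 1370224_at Stat3 differed by -0.31 ± 0.10, with exposed animals at 8.90 to 9.12 and control animals at 9.13 to 9.66, also at an adjusted p of 0.879.

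Nr3c1, the glucocorticoid receptor, followed by p, with -0.21 (95% interval -0.42 to 0.0036) on one probe set and -0.01 on the other. The first read within the span of genes that liver should lack and the other above it. Over the 32 probe sets 15 differences were above 0 and 17 below, with a median of -0.02. Whether Agt and these factors moved together was not tested.

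**Figure D4:**
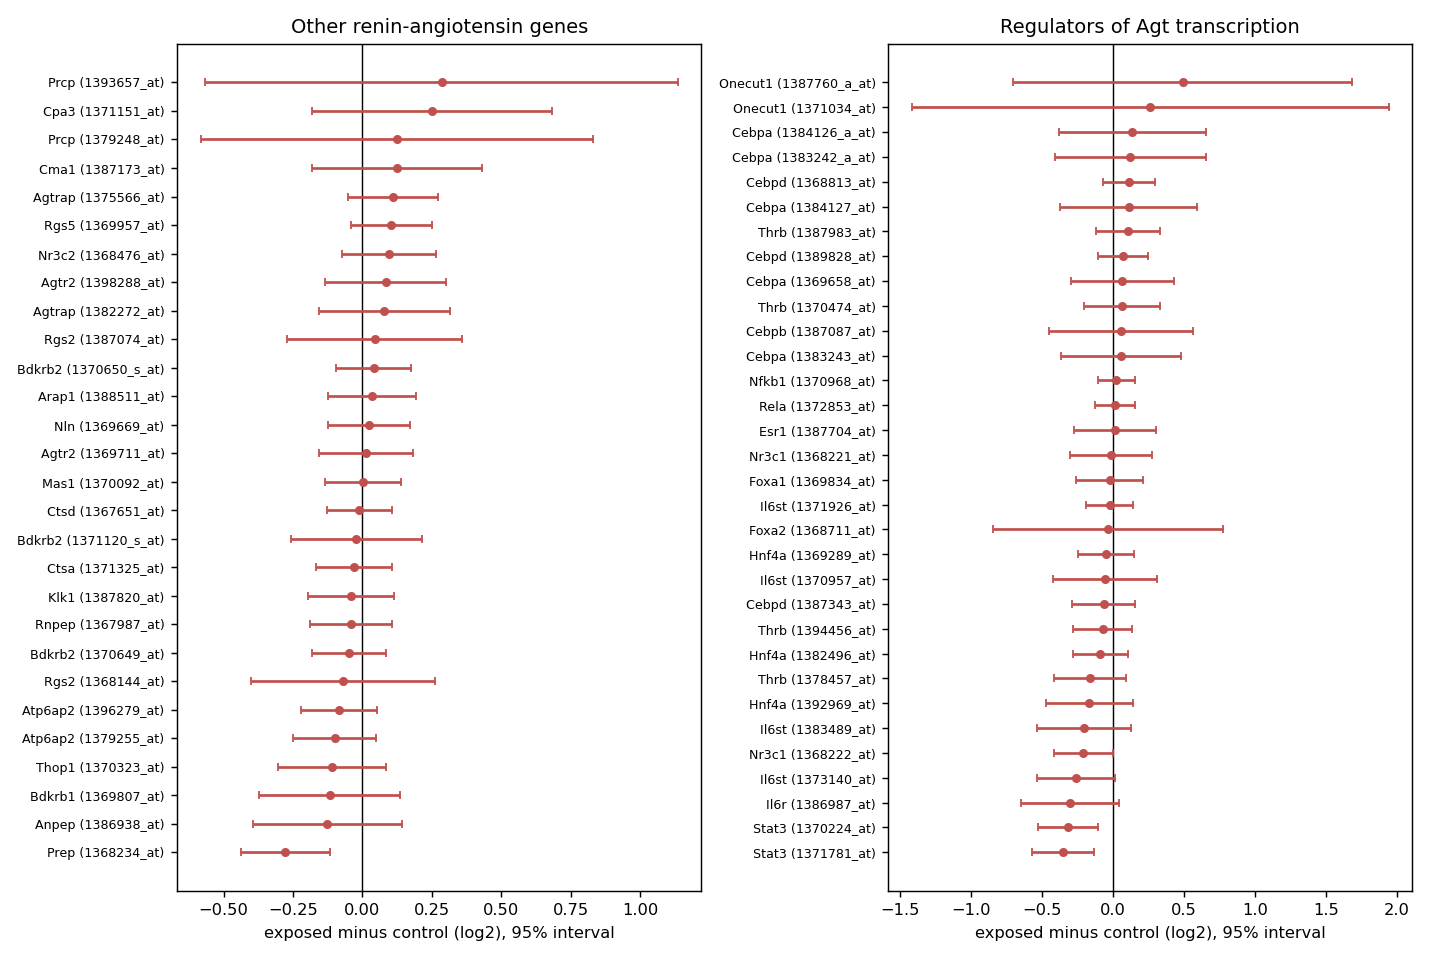
Exposed minus control (log2) with 95% limma intervals for 28 probe sets of other renin-angiotensin genes (left) and 32 of regulators of Agt transcription (right), the panels having different scales. Most intervals cross 0, and those of Prep on the left and both Stat3 probe sets on the right lie below it, at adjusted p values of 0.879.

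Markers of other liver cells and of the adrenal gland were read beside these results, and limma called 0 in each list. Stellate cell and smooth muscle markers, cells that carry AT1 receptors, had 10 of 11 genes measured and averaged 6.72 to 6.79 in exposed livers and 6.60 to 6.83 in control livers. Endothelial markers, of the cell type that carries Ace in many organs, had 7 of 9 measured and averaged 8.21 to 8.49 in exposed livers and 8.18 to 8.45 in control livers. Lymphocyte and neutrophil markers (7 of 10 measured) averaged 4.71 to 5.12 in exposed livers and 4.71 to 5.14 in control livers. Of their 8 probe sets, 1 was higher at an unadjusted limma p under 0.05, against 3.07% of all probe sets. It was Cd3d at 0.20 (95% interval 0.0088 to 0.40, limma adjusted p 0.879), with readings in the span of genes that liver should lack. Of 9 Kupffer cell and macrophage probe sets, 8 were higher and 1 lower in exposed livers. Their median difference was 0.18, where 52% of all probe sets were higher. Bile duct markers (6 of 7) averaged 5.40 to 5.73 in exposed livers and 5.41 to 5.63 in control livers, and adrenal markers (6 of 8) 4.59 to 4.77 in exposed livers and 4.46 to 4.86 in control livers. The ranges of the groups overlapped for each list.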

How the data were processed

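Liver RNA of 10 rats was measured on Affymetrix arrays. The submitters' processing notes name RMA and R 2.8.1, and the deposited log2 values, 1 per probe set, run from 2.19 to 15.0, a range that shows their log scale. RMA normalizes arrays to one another, so a shift shared by most genes is removed. Precision is limited by how many arrays there are. Of 31099 probe sets, 57 control sets were left out. The platform annotation named 1 gene for 20826 probe sets and several for 436, and 9780 are unnamed here. Of the named ones 20758 matched the RefSeq table of GRCr8 by Entrez number, which changed 0 symbols. The files name no build, so RefSeq positions on GRCr8 were used only for the printed and searched promoter windows and not tied to probe sets.

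Exposed and control animals were compared by a two-sided test in limma 3.58.1 under R 4.3.3 (eBayes after lmFit, Benjamini-Hochberg over 31042 probe sets, threshold 0.05), which was tested on simulated data. Standard errors and intervals come from that fit, SDs from the animals. Correlations used 100000 permutations with scipy 1.17.1. By rule, all member probe sets are named, and up to 3 of each other list by smallest p. Where the text names further genes, it says that they were picked with values known. The members and lists were chosen with earlier results of these data known. Alternatives were a filter on low values, quantile normalization, centring, a trended and robust prior, array weights, the RNA quality ratio, the replicate number as a block, the exact permutation test and leaving out each animal. Same-numbered animals correlated between -0.07 and 0.094 after group means were removed, so the numbers were not taken as pairs.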

Additional observations from a re-analysis of the deposited data

Results flagged for a closer look

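Single animals that stood apart from their group, judged by the distance to the next animal as a share of the group's range, numbered 4 in 82 groups of values, where chance gives about 4.1. Among the 22 groups of member values there was 1: exposed animal 4 read 4.71 on the brighter Ace probe set, with the other exposed animals at 4.52 to 4.57. Exposed animal 1 read 4.52 for Cd3d, a T cell gene, against 4.73 to 4.81. For Slc22a6, an organic anion transporter listed as a kidney marker, exposed animal 4 read 5.23 against 5.51 to 5.62 and control animal 3 read 5.78 against 5.53 to 5.59.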

How the results depend on the processing

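The counts of 0 member, 0 other pathway and 0 regulator probe sets past the threshold held under all alternatives run. The count over all probe sets was 0 except without exposed animal 1 (leave-one-out range 0 to 1), where the 1 was no member. The replicate block keeps each difference by construction, so only its p values can move. It gave Agt, at -0.10, a limma adjusted p of 0.897 and called 0 member probe sets. Of 5 exposed animals 0 correlated best with the control of their own number. The filter on low values, the trended and robust prior, the replicate block and the exact permutation test keep each difference. No sign could change there. Of all 309 differences under the alternatives, for members and other named probe sets, 12 changed sign, in 4 member probe sets. For the brighter Ace probe set these were 0.0091 with RNA quality as a covariate and a leave-one-out range of -0.037 to 0.011, for the dimmer one a range of -0.0077 to 0.077, for the brighter Enpep probe set -0.0058 to 0.11, and for Mme 0.15 with RNA quality and -0.37 to 0.12 leaving out single animals. Agt stayed between -0.12 and -0.08, with adjusted p of at least 0.760; its unadjusted p passed 0.05 in the exact permutation test (0.00794) and by limma with each array centred on its median (0.0489). Leaving out 1 animal also moved other member differences by over 1.5 times, such as Agtr1a to 0.09 (1384240_at) and 0.08 (1369291_at) without control animal 2 and to 0.02 (1369291_at) without control animal 5, Agtr1b to 0.05 without exposed animal 4, and Lnpep to 0.13 (1369376_a_at) without exposed animal 3. The cause was not tested. Readings of the 6 dim member probe sets and of the dimmer Enpep probe set lie in the span of genes that liver should lack. By that gauge they cannot be told from background, and what sets their spread was not tested.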

Other observations

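Prcp, prolylcarboxypeptidase, which trims angiotensins at their carboxyl end and was chosen here for its spread after its values were seen, varied between animals on both probe sets. On 1393657_at it ran from 4.88 to 7.07 in exposed animals and from 4.92 to 6.26 in control animals, within the span of genes that liver should lack. The difference was 0.28 (95% interval -0.57 to 1.14) at a limma adjusted p of 0.945. On the brighter 1379248_at it ran from 6.15 to 7.91 in exposed animals and from 6.22 to 7.35 in control animals. The highest readings of both groups there lay above that span. Its difference was 0.13 (-0.58 to 0.83) at a limma adjusted p of 0.972. Mast cell peptidases that can form angiotensin II or cut its precursors also read within that span, and were chosen after their values were seen. They gave 0.25 (-0.18 to 0.68) for Cpa3 and 0.12 (-0.18 to 0.43) for Cma1, with limma adjusted p values of 0.909 and 0.936. The lysosomal proteases Ctsd and Ctsa, also chosen after their values were seen, differed by -0.01 and -0.03.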
